A study of Mus musculus with 33 samples.

Results

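The Wnt pathway members described here are 45 genes, of 47729 in the count tables, measured by RNA sequencing in 33 libraries of mouse retinal cells. They were taken by gene symbol from a given list and comprise 16 ligands, 10 Frizzled receptors, 4 co-receptors, 8 secreted inhibitors and 7 targets. All libraries came from retinal progenitor cells, the dividing cells that form the neurons and Müller glia of the retina, isolated from C57BL/6J retina at embryonic day 14. On day 0 the cells were untreated, cone primed with COCO protein, or rod primed with taurine and retinoic acid. On days 5, 12, 21 and 35 they were under cone induction with COCO or rod induction with taurine and retinoic acid, called cone and rod cultures below. Each of the 11 groups had 3 libraries, and the labels do not say whether these came from separate cultures, so p-values measure the spread between these libraries only.

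Wnt ligands are secreted lipid-modified proteins that bind Frizzled receptors together with Lrp5 or Lrp6, which stabilises beta-catenin and lets it act with Tcf and Lef factors on target genes, or together with Ror1 or Ror2, which acts without beta-catenin. Secreted Frizzled-related proteins (the Sfrp genes and Frzb) and Wif1 bind the ligands, whereas Dickkopf proteins (Dkk1, Dkk2) bind Lrp5 and Lrp6. In the developing eye, beta-catenin signalling is active at the rim of the retina, where the ciliary body and iris form. COCO is known as an antagonist of BMP, TGF-beta and Wnt ligands, and retinoic acid acts through nuclear receptors that bind DNA.

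Promoters are shown for the 6 members called between rod-primed and untreated cells, since retinoic acid receptors bind DNA near genes. These are Tcf7 at chr11:52282965-52283264 (minus strand), Lef1 at chr3:131110047-131110346 (plus strand), Wnt9a at chr11:59306680-59306979 (plus strand), Sfrp2 at chr3:83766071-83766370 (plus strand), Fzd1 at chr5:4758167-4758466 (minus strand) and Fzd7 at chr1:59481897-59482196 (plus strand), each at the most upstream start in the table. A second Tcf7 start, inside the gene at chr11:52282546-52282845 (minus strand), is shown because its window differs in the motif searched. Each runs 5′ to 3′ on the gene's strand from 250 bases before to 50 after a RefSeq start on build GRCm38.p6. Capitals mark a match to AGGTCA or AGTTCA, half-sites of nuclear receptors, on either strand.
Tcf7, upstream start: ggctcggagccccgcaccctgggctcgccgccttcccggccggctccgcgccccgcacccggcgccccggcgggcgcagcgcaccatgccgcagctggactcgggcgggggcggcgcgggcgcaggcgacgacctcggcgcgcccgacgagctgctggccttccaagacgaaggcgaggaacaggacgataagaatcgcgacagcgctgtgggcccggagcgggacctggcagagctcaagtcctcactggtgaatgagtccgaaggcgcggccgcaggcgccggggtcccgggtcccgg
Tcf7, internal start: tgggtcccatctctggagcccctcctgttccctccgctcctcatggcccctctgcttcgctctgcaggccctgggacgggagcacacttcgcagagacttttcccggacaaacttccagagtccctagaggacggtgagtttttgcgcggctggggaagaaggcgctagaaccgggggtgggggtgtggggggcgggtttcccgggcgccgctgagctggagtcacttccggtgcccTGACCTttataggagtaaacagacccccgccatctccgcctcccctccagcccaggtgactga
Lef1: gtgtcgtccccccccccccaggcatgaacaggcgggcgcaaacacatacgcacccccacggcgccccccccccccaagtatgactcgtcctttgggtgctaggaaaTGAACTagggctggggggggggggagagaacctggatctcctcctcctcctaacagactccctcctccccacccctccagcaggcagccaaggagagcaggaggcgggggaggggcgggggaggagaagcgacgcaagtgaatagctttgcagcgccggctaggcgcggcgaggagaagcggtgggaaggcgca
Wnt9a: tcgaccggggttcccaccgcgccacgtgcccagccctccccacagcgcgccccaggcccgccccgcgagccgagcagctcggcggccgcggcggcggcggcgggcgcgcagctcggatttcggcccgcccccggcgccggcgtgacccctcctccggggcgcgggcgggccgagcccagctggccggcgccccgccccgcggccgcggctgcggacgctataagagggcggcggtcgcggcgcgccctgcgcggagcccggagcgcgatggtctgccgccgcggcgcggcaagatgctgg
Sfrp2: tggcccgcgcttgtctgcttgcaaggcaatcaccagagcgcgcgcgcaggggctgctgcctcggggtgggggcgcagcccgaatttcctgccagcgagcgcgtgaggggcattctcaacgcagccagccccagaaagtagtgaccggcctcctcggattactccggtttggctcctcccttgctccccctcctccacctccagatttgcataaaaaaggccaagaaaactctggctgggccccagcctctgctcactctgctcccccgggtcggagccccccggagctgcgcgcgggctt
Fzd1: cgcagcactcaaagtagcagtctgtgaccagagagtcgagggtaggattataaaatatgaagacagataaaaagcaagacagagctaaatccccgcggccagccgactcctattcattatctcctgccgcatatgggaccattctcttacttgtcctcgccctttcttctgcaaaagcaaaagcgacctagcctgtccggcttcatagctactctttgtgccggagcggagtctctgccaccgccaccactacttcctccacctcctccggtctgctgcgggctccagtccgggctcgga
Fzd7: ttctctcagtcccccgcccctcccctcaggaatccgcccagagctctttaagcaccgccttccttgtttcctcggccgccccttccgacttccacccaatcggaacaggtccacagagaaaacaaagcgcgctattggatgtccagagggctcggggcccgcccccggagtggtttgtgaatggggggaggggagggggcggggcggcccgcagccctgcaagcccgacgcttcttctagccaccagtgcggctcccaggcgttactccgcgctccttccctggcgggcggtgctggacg

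At the most upstream starts listed, Lef1 held AGTTCA on the reverse strand and the other 5 members held neither half-site. For Tcf7 that window may hold coding sequence. The internal Tcf7 start held AGGTCA on the reverse strand. Among the 4 listed Lef1 starts, 2 held AGTTCA and 2 held neither half-site. Of 32851 mouse promoters of this length, 16.3% held AGGTCA and 14.0% held AGTTCA. Among the 32 of 45 members with a promoter in the table, AGGTCA was in at least 1 window of Frzb, Tcf7 and Wnt16, and AGTTCA in at least 1 of Lef1, Rnf43 and Wnt3. The Tcf and Lef motif CTTTGAT (in 3.73% of promoters) was in those of Wnt11 and Wnt5b, and CTTTGAA (in 5.13%) in that of Dkk1. These matches describe letters in a window and not binding.

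The libraries held 7511837 to 19166442 counts in genes (median 12985662). Levels below are edgeR's CPM, counts relative to the scaled library size. Rod day 12 replicate 2 stood apart most, with a mean correlation of 0.944 with its group in log2 CPM. The cell label was checked against summed marker levels. The 10 retinal progenitor markers summed to 1110.2 to 1213 CPM in untreated cells and 856 to 1515 on day 35, although Fgf15 was at 0 in both day 21 groups and in cone day 35. Pax6 alone averaged 391 CPM in cone and 578 in rod cultures on day 35. Hes5 averaged 46.3 CPM in untreated cells, 0.395 in cone day 35 and 0.150 in rod day 35, and Rax 109, 22.2 and 47.3. From primed cells to day 35, 3 of the 10 rose and 5 fell in cone, and 3 rose and 3 fell in rod cultures. Photoreceptor markers (6 genes) summed to 927 to 1239 CPM in untreated cells, 30.8 to 51.4 in cone and 25.2 to 29.6 in rod cultures on day 35, so cone and rod here name the treatment. On day 5 the photoreceptor sums were 1229 to 1444 CPM in cone and 652 to 1080 in rod cultures. On day 12 they were 73.2 to 252 in cone and 74.5 to 769 in rod cultures. Mesenchyme markers (10 genes) summed to 5.00 to 30.1 CPM on day 0, 419 to 550.5 in cone and 109 to 216 in rod cultures on day 12, and 626 to 3223 and 361 to 721 on day 35. Of these, Dcn was at 0 in cone-primed and cone day 5 cells. Ciliary margin markers (5 genes) summed to 18.1 to 40.9 CPM in untreated and cone-primed cells, 110.4 to 218 in rod-primed cells, and 103 to 134 in cone and 304 to 391 in rod cultures on day 5. On day 35 they summed to 1364 to 1543 CPM in cone and 1011 to 1346 in rod cultures, most of it Ccnd2 (means of 1364 and 937 CPM). Wfdc1 of the same list had means of 13.5 CPM in cone and 159 in rod cultures on day 35, and Otx1 of 4.37 and 9.05. None of the 5 was at 0 in any group. Retinal pigment epithelium markers (6 genes) stayed at 22.7 to 37.9 CPM in cone and 9.85 to 19.2 in rod cultures from day 5, with Tyr, Rpe65 or both at 0 in every group but cone day 35. Microglia markers (6 genes) were at 12.2 to 63.6 CPM in cone and 0.772 to 1.93 in rod cultures on days 21 and 35. The part of these cell types in the results was not tested.

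Averaged across days 5 to 35 (each day with equal weight), 19 of the 37 members tested differed in level between cone and rod cultures, where 27.8% of all genes tested did. Cone cultures had more RNA of the ligands Wnt7b, Wnt2, Wnt2b and Wnt5b, of the Frizzled genes Fzd2 and Fzd10, and of the inhibitors Sfrp1, Frzb and Dkk2. Rod cultures had more of the ligands Wnt5a, Wnt9a and Wnt11, of Lrp6, Ror1 and Ror2, of the inhibitor Sfrp2, and of the targets Tcf7, Nkd1 and Notum. Axin2, the most widely used target of beta-catenin signalling, did not pass the test between cone and rod at any day (-0.04 ± 0.10 on the log2 scale across days 5 to 35, adjusted p = 0.810). In bulk RNA, fewer cells of a type and less RNA per cell cannot be told apart. The map of cone against rod differences shows these members by role.

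**Figure D1:**
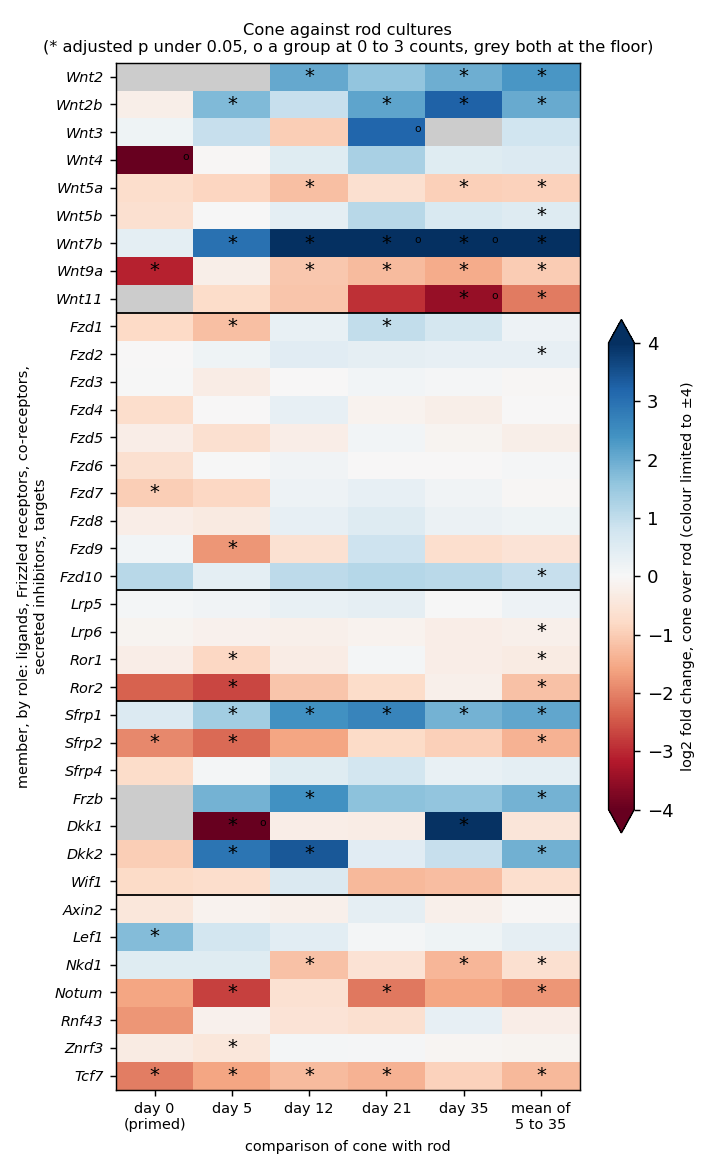
Log2 fold change of cone over rod for the 37 members that passed the filter on low counts (rows, by role) on days 0, 5, 12, 21 and 35 and for the 4 later days averaged (columns), blue for higher in cone and red for higher in rod. Stars mark an adjusted p under 0.05, small circles a group with 0 to 3 counts in all, whose fitted value is no measured size (also part of the mean of days for Wnt2, Wnt3, Wnt7b, Wnt11 and Dkk1), and grey cells 2 groups at the floor of 3 counts. The day 35 colours of Wnt2b and Dkk1 rest on rod groups of 5 and 4 counts in all. Sfrp1 and Wnt7b are blue from day 5 on, Tcf7 is red throughout, and Fzd1 turns from red on day 5 to blue on day 21.

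Of the 45 members, 37 passed the filter on low counts, and a call below means an adjusted p (Benjamini-Hochberg, over the 18150 genes that edgeR tested) under 0.05. Between cone-primed and rod-primed cells 5 members were called, 1 higher and 4 lower in cone-primed cells, where 7.27% of all genes tested were called (2.50% higher, 4.77% lower). Day 5 had 13 called members (4 higher and 9 lower in cone), against 9.28% of all genes (3.48% higher, 5.80% lower). Day 12 had 9 (5 higher, 4 lower), against 10.1% of all genes (5.98% higher, 4.12% lower). Day 21 had 7 (4 higher, 3 lower), against 9.00% (5.86% higher, 3.14% lower), and day 35 had 9 (5 higher, 4 lower), against 12.3% (7.77% higher, 4.51% lower). The mean of days 5 to 35 had 19 (9 higher, 10 lower), against 27.8% of all genes (15.6% higher, 12.2% lower). Of 5 dividing-cell markers, cone was lower for 2 on day 0, 5 on day 5 and 4 across days 5 to 35. On days 12, 21 and 35 it was lower for 0, and 0 were higher in any of these comparisons. The part of these markers was not tested. The median log2 fold change over the tested members was -0.04 across days 5 to 35 (-0.02 with groups of 0 to 3 counts set to the floor of 3 counts), against 0.01 over all genes. An F test for a change of that difference with day called 8 members, against 9.22% of all genes. As a share of the 37 tested, the members called were 13.5% on day 0, 35.1% on day 5, 24.3% on day 12, 18.9% on day 21, 24.3% on day 35, 51.4% across days 5 to 35 and 21.6% for the change with day. Leaving out 1 library gave 3 called members on day 0 without cone-primed replicate 1 or 3 and 2 without rod-primed replicate 3. On day 5 it gave 5 without cone day 5 replicate 1, 6 without cone day 5 replicate 2 or rod day 5 replicate 3 and 7 without rod day 5 replicate 1, and on day 12 it gave 5 without rod day 12 replicate 3. On day 21 it gave 4 without cone day 21 replicate 2, cone day 21 replicate 3 or rod day 21 replicate 1. For the change with day it gave 4 without rod-primed replicate 3 and 5 without any 1 of cone-primed replicate 3, cone day 5 replicates 2 and 3, cone day 12 replicate 3, cone day 21 replicate 1, rod day 5 replicate 1, rod day 12 replicate 3 and rod day 21 replicate 3.

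Priming was compared with no treatment on day 0. Rod-primed cells carried more Wnt9a, Fzd1, Fzd7, Sfrp2 and Tcf7 and less Lef1 than untreated cells, 6 members called against 10.3% of all genes (6.71% higher and 3.56% lower), and 3 without rod-primed replicate 3. Cone-primed cells differed from untreated cells in 0 members by edgeR, with 0 members at an unadjusted p under 0.05, 0 by DESeq2 and 0% of all genes. The median of the tested members was 0.36 on the log2 scale for rod priming (0.27 with low groups at the floor) and 0.04 for cone priming (0.04 at the floor), against 0.00 over all genes in each. Dividing-cell markers (5 genes) moved with rod priming, at 1591 to 2023 CPM in rod-primed, 716 to 1127 in untreated and 777 to 1334 in cone-primed cells, and their part was not tested. Both priming comparisons share the untreated libraries, and the values of each gene are given with its role below.

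Each culture was also compared with its own primed cells, which are the libraries of the day 0 comparison as well. By day 35, 30 members had changed in cone cultures (25 higher and 5 lower), where 31.1% of all genes rose and 26.5% fell (57.7% in all). In rod cultures 27 had changed (22 higher and 5 lower), where 29.4% of all genes rose and 26.2% fell (55.6% in all). On day 5 10 had changed in cone cultures (6 higher, 4 lower), against 22.3% of all genes (12.2% higher, 10.2% lower). In rod cultures 8 had changed by day 5 (6 higher, 2 lower), against 17.5% of all genes (8.76% higher, 8.79% lower). The median of the tested members on day 35 was 1.60 in cone (1.54 with low groups at the floor) and 1.30 in rod cultures (1.11 at the floor), against 0.03 and 0.04 over all genes. The members called on day 35 were 81.1% of those tested in cone and 73.0% in rod cultures, and on day 5 27.0% and 21.6%. Mesenchyme markers rose over the same time, 9 of 9 tested in each culture. Ciliary margin markers rose in 5 of 5 in each, and astrocyte markers in 5 of 5 in cone and 4 of 5 in rod. Müller glia markers rose in 4 of 5 in each (1 fell in rod), and microglia markers in 4 of 4 in cone and 0 of 4 in rod. Photoreceptor markers fell in 5 of 6 in each, and dividing-cell markers in 4 of 5 in cone and 5 of 5 in rod. The part of these lists was not tested.

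Of the 16 ligands, 9 passed the filter: Wnt2, Wnt2b, Wnt3, Wnt4, Wnt5a, Wnt5b, Wnt7b, Wnt9a and Wnt11. Across days 5 to 35 cone was higher for 4 and lower for 3 of them, where 15.6% of all genes were higher and 12.2% lower. The median log2 fold change of the 9 was 0.55 (0.53 with low groups at the floor). Per kilobase of exon, Wnt5b (4.58 CPM per kb over all libraries), Wnt9a (4.38) and Wnt5a (3.64) were the most abundant ligands, and the next, Wnt2, was at 0.576. In untreated cells Wnt5b led at 1.68 ± 0.612 CPM per kb (mean ± SD, n = 3), with Wnt5a at 0.552 ± 0.104 and Wnt9a at 0.111 ± 0.104. On day 35 Wnt9a led in rod cultures at 12.1 ± 2.18 CPM per kb, with Wnt5a at 9.19 ± 1.20. In cone cultures Wnt5b led at 7.22 ± 1.20, with Wnt5a at 4.71 ± 0.233 and Wnt9a at 4.35 ± 0.920. The plot of ligand levels shows each library.

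**Figure D2:**
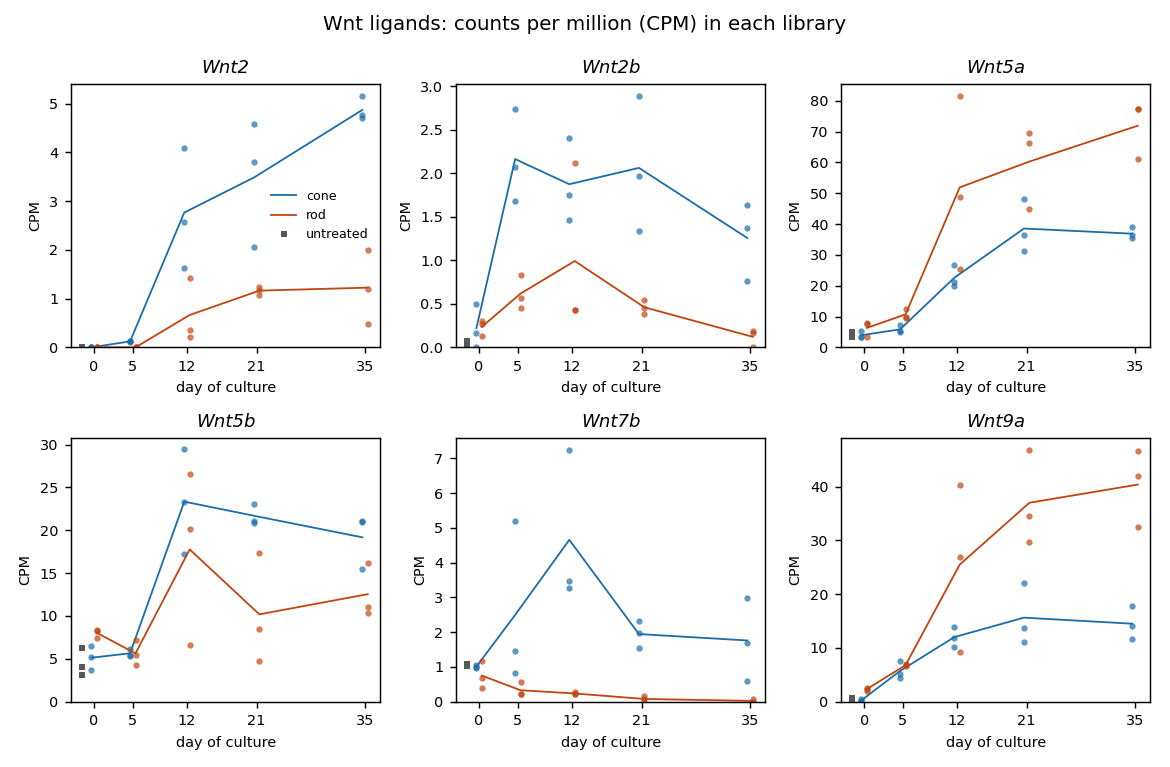
CPM (vertical axes) by day of culture (horizontal axes) for 6 ligands, with 1 point per library, lines through group means, blue for cone, orange for rod and grey squares for untreated cells. Cone points lie above rod points for Wnt7b from day 5 and for Wnt2 from day 12, and rod points lie above cone points for Wnt9a on days 21 and 35.

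Wnt7b (ENSMUSG00000022382, chromosome 15, 85535437 to 85582473, minus strand), a ligand known from brain and eye vessel development, was higher in cone than in rod cultures on every day from day 5 on. Wnt7b stood at 1.02, 1.07 and 1.09 CPM in untreated cells, at 1.01, 0.970 and 1.05 in cone-primed cells and at 0.678, 0.403 and 1.17 in rod-primed cells. Cone libraries held Wnt7b at 5.21, 1.46 and 0.814 CPM on day 5, 7.23, 3.26 and 3.48 on day 12, 1.97, 2.31 and 1.55 on day 21 and 2.99, 0.601 and 1.69 on day 35. Rod libraries held Wnt7b at 0.562, 0.214 and 0.208 CPM on day 5, 0.214, 0.273 and 0.216 on day 12, 0.154, 0.0772 and 0 on day 21 and 0, 0 and 0.0646 on day 35. The groups overlapped on day 0 and did not overlap on any later day, and every rod library of days 5 to 35 was below every untreated library. Cone was higher by 2.98 ± 0.66 (adjusted p = 0.00389) on day 5 and by 4.24 ± 0.67 (adjusted p = 9.58e-05) on day 12 (log2 fold change ± standard error, edgeR quasi-likelihood test with Benjamini-Hochberg adjustment). On days 21 and 35 the rod libraries held 1 to 3 counts in all, so no fold is given, and the adjusted p-values were 0.000524 and 0.000173. Across days 5 to 35 the adjusted p was 2.19e-09. Microglia markers were also higher in cone over those days in 4 of 4 tested genes, against 15.6% of all genes. So were markers of pigment epithelium (3 of 3 tested), endothelium (2 of 2 tested, of 5 listed), lens (4 of 5, 1 lower) and mesenchyme (5 of 9, 2 lower). Of the endothelium list, Kdr averaged 344 CPM in untreated cells, and 174 in cone and 69.1 in rod cultures on day 35. Cdh5, Tek and Cldn5 of that list averaged 0.169, 0.556 and 0 CPM in cone day 35. Progenitor markers were 1 higher and 5 lower of 10, and the part of these lists was not tested. Rod day 35 was lower than rod-primed cells (adjusted p = 0.000771), and cone day 35 was 0.80 from cone-primed cells on the log2 scale (adjusted p = 0.259). For Wnt7b the day 5 call was lost without cone replicate 1 (adjusted p = 0.0775). Wnt7b had a log2 fold change of 1.89 on day 5 without cone day 5 replicate 1.

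Wnt2 (ENSMUSG00000010797, chromosome 6, 17988940 to 18030585, minus strand), a ligand that acts through beta-catenin in lung and other organs, was absent from the counts of day 0. Day 0 Wnt2 levels were 0, 0 and 0 CPM in untreated cells, 0, 0 and 0 in cone-primed cells and 0, 0 and 0 in rod-primed cells. Cone Wnt2 levels were 0.134, 0.122 and 0.116 CPM on day 5, 2.57, 1.63 and 4.10 on day 12, 3.81, 2.05 and 4.59 on day 21 and 4.69, 5.15 and 4.76 on day 35. Rod Wnt2 levels were 0, 0 and 0 CPM on day 5, 1.43, 0.205 and 0.360 on day 12, 1.08, 1.24 and 1.17 on day 21 and 1.19, 0.485 and 2.00 on day 35. No library held a count on day 0 or in rod day 5, and the cone libraries lay above the rod libraries on days 12, 21 and 35. Day 35 cone cultures were at least 15.6-fold and rod cultures at least 3.76-fold higher than primed cells at the floor of 3 counts per library (adjusted p = 9.43e-07 and 0.000122). Cone exceeded rod by 2.05 ± 0.56 (adjusted p = 0.0253) on day 12 and by 1.96 ± 0.53 (adjusted p = 0.0193) on day 35, and day 21 did not pass (1.57, adjusted p = 0.0759). For Wnt2 the day 12 call was lost without cone replicate 3 or rod replicate 2 or 3 (highest adjusted p = 0.156, without cone replicate 3) and in a model of the compared libraries only (adjusted p = 0.225). For Wnt2 the day 35 call was lost without cone replicate 2 or rod replicate 1 or 2 (highest adjusted p = 0.0784, without rod replicate 2). Across days 5 to 35, which includes the rod day 5 group at 0, the adjusted p was 0.000619. Wnt2 had a log2 fold change of 3.25 on day 12 without rod day 12 replicate 1.

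Its close paralogue Wnt2b, known in the eye from the retinal margin and pigment epithelium, was described after its values were seen, because its mean of 0.914 CPM lay under the 1 CPM set for detailed description. On day 0 Wnt2b was measured at 0, 0.0667 and 0.0679 CPM without treatment, 0.503, 0.162 and 0 after cone priming and 0.136, 0.302 and 0.269 after rod priming. In cone cultures Wnt2b read 2.74, 2.07 and 1.69 CPM on day 5, 1.75, 2.41 and 1.47 on day 12, 2.89, 1.97 and 1.33 on day 21 and 0.768, 1.63 and 1.37 on day 35. In rod cultures Wnt2b read 0.449, 0.572 and 0.833 CPM on day 5, 0.428, 2.11 and 0.433 on day 12, 0.386, 0.541 and 0.456 on day 21 and 0.170, 0 and 0.194 on day 35. Cone was above rod in every library of days 5, 21 and 35, and the groups overlapped on day 12. Across days 5 to 35 cone was higher by 2.00 ± 0.31 (adjusted p = 1.35e-05), and it was higher on day 35 (adjusted p = 0.00326), where the rod libraries held 5 counts in all and none more than 3, so no fold is given. For Wnt2b the day 5 call (1.76) was lost without any 1 of the 6 libraries (highest adjusted p = 0.186, without rod replicate 1), without the filter (adjusted p = 0.0653) and with a replicate block (adjusted p = 0.0522). On day 21 (2.11) it was lost without cone replicate 1 or 2 or rod replicate 1, 2 or 3 (highest adjusted p = 0.0943, without cone replicate 1). Of 6 listed pigment epithelium markers only 3 were tested, and these 3 were higher in cone across days 5 to 35. Tyr, Rpe65 and Pmel of the same list averaged 0.0286, 0.113 and 0.384 CPM in cone day 35. Ciliary margin markers had 0 higher and 2 lower of 5 tested, where 15.6% of all genes were higher and 12.2% lower. The part of either list in the Wnt2b difference was not tested.

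Wnt5a (ENSMUSG00000021994, chromosome 14, 28504750 to 28527448, plus strand), the best known ligand of signalling without beta-catenin through Ror receptors, rose in both cultures and was higher in rod. On day 0 Wnt5a was measured at 4.61, 3.40 and 4.96 CPM without treatment, 5.16, 3.23 and 3.46 after cone priming and 8.00, 3.22 and 7.72 after rod priming. In cone cultures Wnt5a read 7.15, 4.99 and 5.41 CPM on day 5, 26.6, 19.9 and 21.3 on day 12, 48.0, 36.3 and 31.3 on day 21 and 35.3, 38.9 and 36.4 on day 35. In rod cultures Wnt5a read 12.6, 10.0 and 9.51 CPM on day 5, 81.6, 25.3 and 48.7 on day 12, 66.3, 44.9 and 69.6 on day 21 and 77.3, 61.0 and 77.3 on day 35. Rod libraries were all above cone libraries on days 5 and 35, while the groups overlapped on days 12 and 21. By day 35 Wnt5a had risen from primed levels by 3.24 ± 0.34 (adjusted p = 6.33e-09) in cone and by 3.52 ± 0.33 (adjusted p = 1.41e-09) in rod cultures. The Wnt5a difference, cone minus rod, was -0.92 ± 0.15 (adjusted p = 2.78e-05) across days 5 to 35, -1.20 ± 0.29 (adjusted p = 0.00772) on day 12 and -0.96 ± 0.29 (adjusted p = 0.0263) on day 35. For Wnt5a the day 12 call was lost without rod replicate 1 (adjusted p = 0.0782) and with the compared libraries only (adjusted p = 0.191). For Wnt5a the day 35 call was lost without cone replicate 1, 2 or 3 or rod replicate 1 or 3 (highest adjusted p = 0.0842, without cone replicate 1).

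Wnt9a (ENSMUSG00000000126, chromosome 11, 59306928 to 59333552, plus strand), a ligand known from joint formation, was the ligand called between rod-primed and untreated cells, 1 of 9 tested, against 10.3% of all genes. Day 0 Wnt9a levels were 0.768, 0.133 and 0.204 CPM in untreated cells, 0.126, 0.404 and 0.210 in cone-primed cells and 2.44, 1.91 and 2.60 in rod-primed cells. Cone Wnt9a levels were 5.14, 7.54 and 4.48 CPM on day 5, 11.9, 10.3 and 13.8 on day 12, 22.0, 11.0 and 13.8 on day 21 and 14.0, 17.8 and 11.7 on day 35. Rod Wnt9a levels were 6.63, 6.79 and 6.94 CPM on day 5, 40.3, 9.21 and 27.0 on day 12, 46.7, 29.7 and 34.5 on day 21 and 42.0, 32.4 and 46.7 on day 35. The rod-primed libraries were above all untreated and cone-primed libraries, the cultures overlapped on days 5 and 12, and rod was above cone again on days 21 and 35. Rod-primed cells exceeded untreated cells by 2.90 ± 0.62 (adjusted p = 0.00287), and cone-primed minus rod-primed was -3.08 ± 0.66 (adjusted p = 0.00409). It then rose to day 35 by 5.72 ± 0.56 (adjusted p = 1.60e-09) in cone and by 4.12 ± 0.41 (adjusted p = 3.80e-09) in rod cultures. The Wnt9a difference, cone minus rod, was -1.26 ± 0.34 (adjusted p = 0.0195) on day 21 and -1.48 ± 0.34 (adjusted p = 0.00419) on day 35, and -1.02 ± 0.17 (adjusted p = 5.99e-05) across days 5 to 35. For Wnt9a the day 12 call (-1.09) was lost without cone replicate 1, 2 or 3 or rod replicate 1 or 3 (highest adjusted p = 0.271, without rod replicate 1) and with the compared libraries only (adjusted p = 0.317). For Wnt9a the day 21 call was lost without cone replicate 2 or 3 or rod replicate 1 (highest adjusted p = 0.0944, without cone replicate 2). Wnt9a had a log2 fold change of -3.68 between the primed groups without cone-primed replicate 2, 3.74 between rod-primed and untreated cells without untreated replicate 1 and 6.32 for cone day 35 against primed without cone-primed replicate 2.

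Wnt5b (ENSMUSG00000030170, chromosome 6, 119432531 to 119544347, minus strand), the close paralogue of Wnt5a, rose in cone cultures. Wnt5b stood at 3.07, 4.07 and 6.25 CPM in untreated cells, at 5.16, 6.55 and 3.67 in cone-primed cells and at 8.27, 8.36 and 7.45 in rod-primed cells. Cone libraries held Wnt5b at 5.48, 5.35 and 6.10 CPM on day 5, 23.3, 17.2 and 29.5 on day 12, 23.1, 20.9 and 21.1 on day 21 and 21.0, 21.0 and 15.5 on day 35. Rod libraries held Wnt5b at 7.19, 4.29 and 5.42 CPM on day 5, 26.6, 6.62 and 20.1 on day 12, 17.4, 8.49 and 4.69 on day 21 and 16.2, 11.0 and 10.4 on day 35. Cone and rod overlapped on days 5, 12 and 35, and cone lay above rod on day 21. Cone day 35 exceeded cone-primed cells by 1.89 ± 0.40 (adjusted p = 0.000228), and rod day 35 differed from rod-primed cells by 0.64 (adjusted p = 0.166). The cone minus rod difference across days 5 to 35 was 0.53 ± 0.19 (adjusted p = 0.0376), a call lost in 12 of 24 fits that each left out 1 library (highest adjusted p = 0.0745, without cone day 12 replicate 3) and with the compared libraries only (adjusted p = 0.0633).

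Wnt4 (ENSMUSG00000036856, chromosome 4, 137277489 to 137299726, plus strand), a ligand of kidney and ovary development, was at 0.188 CPM per kb over all libraries. On day 0 Wnt4 was measured at 0, 0 and 0.136 CPM without treatment, 0, 0 and 0 after cone priming and 0, 0.101 and 0.539 after rod priming. In cone cultures Wnt4 read 1.07, 0.426 and 0.639 CPM on day 5, 1.40, 2.10 and 1.47 on day 12, 1.71, 1.46 and 2.37 on day 21 and 1.02, 1.29 and 0.404 on day 35. In rod cultures Wnt4 read 0.449, 0.786 and 0.903 CPM on day 5, 0.571, 2.39 and 0.577 on day 12, 0.618, 0.927 and 0.717 on day 21 and 1.02, 0.404 and 0.516 on day 35. All 3 cone-primed libraries were at 0, and every later library had at least 0.404 CPM. Cone day 35 was at least 2.91-fold higher than cone-primed cells (adjusted p = 0.000222), and cone and rod did not pass the test on any day.

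Wnt11, a ligand of convergent extension movements, held 0.618, 1.16 and 1.24 CPM in rod and 0.262, 0 and 0.148 in cone cultures on day 21, and 0.340, 2.43 and 0.387 and 0, 0 and 0.242 on day 35. It was lower in cone across days 5 to 35 (adjusted p = 0.00245). Its day 35 call was lost without cone replicate 1 or 2 or rod replicate 2 (highest adjusted p = 0.273, without rod replicate 2). Wnt3 was at 0.126 to 1.34 CPM up to day 5 and at no more than 0.171 on day 35, a fall called in cone (adjusted p = 0.0112) and in rod cultures (adjusted p = 0.0146). The cone call was lost without cone-primed replicate 3 or cone day 35 replicate 3 (highest adjusted p = 0.0665, without cone-primed replicate 3). The rod call was lost without rod-primed replicate 1 or rod day 35 replicate 2 (highest adjusted p = 0.0592, without rod-primed replicate 1). The values of Wnt11 and Wnt3 were chosen after they were seen. The 7 ligands that did not pass the filter had few counts: over the 33 libraries Wnt1 had 3 counts in all, Wnt3a 1, Wnt6 18, Wnt7a 37, Wnt10a 12, Wnt10b 30 and Wnt16 16. The highest count in 1 library was 10, for Wnt10b, and these genes were not tested. Wnt7a, named after its values were seen, had counts of 2, 0 and 8 in cone libraries on day 12, 0, 5 and 0 on day 21 and 0, 5 and 1 on day 35, and 0 in all rod libraries of those days.

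All 10 Frizzled receptor genes passed the filter. Of these, Fzd2 and Fzd10 were higher in cone across days 5 to 35 and 0 were lower (median log2 fold change 0.01), where 15.6% of all genes were higher and 12.2% lower. From primed cells to day 35, 8 rose and 1 fell in cone cultures (median 1.79), and 7 rose and 1 fell in rod cultures (median 1.32), where 31.1% of all genes rose and 26.5% fell in cone and 29.4% rose and 26.2% fell in rod cultures. The gene that fell was Fzd3, a receptor known from axon guidance and tissue polarity, at -0.66 in cone and -0.71 in rod cultures. In untreated cells Fzd5, a receptor of retinal progenitors, led at 14.1 ± 1.15 CPM per kb, followed by Fzd3 at 6.18 ± 0.295 and Fzd1 at 3.20 ± 0.426. On day 35 cone cultures had Fzd1 at 45.3 ± 5.86 CPM per kb, Fzd5 at 36.6 ± 2.69 and Fzd7 at 14.8 ± 3.64. Rod cultures had Fzd5 at 39.1 ± 10.8, Fzd1 at 27.6 ± 4.63 and Fzd7 at 13.4 ± 4.21. The plot of receptor levels shows 4 Frizzled genes and 2 co-receptors.

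**Figure D3:**
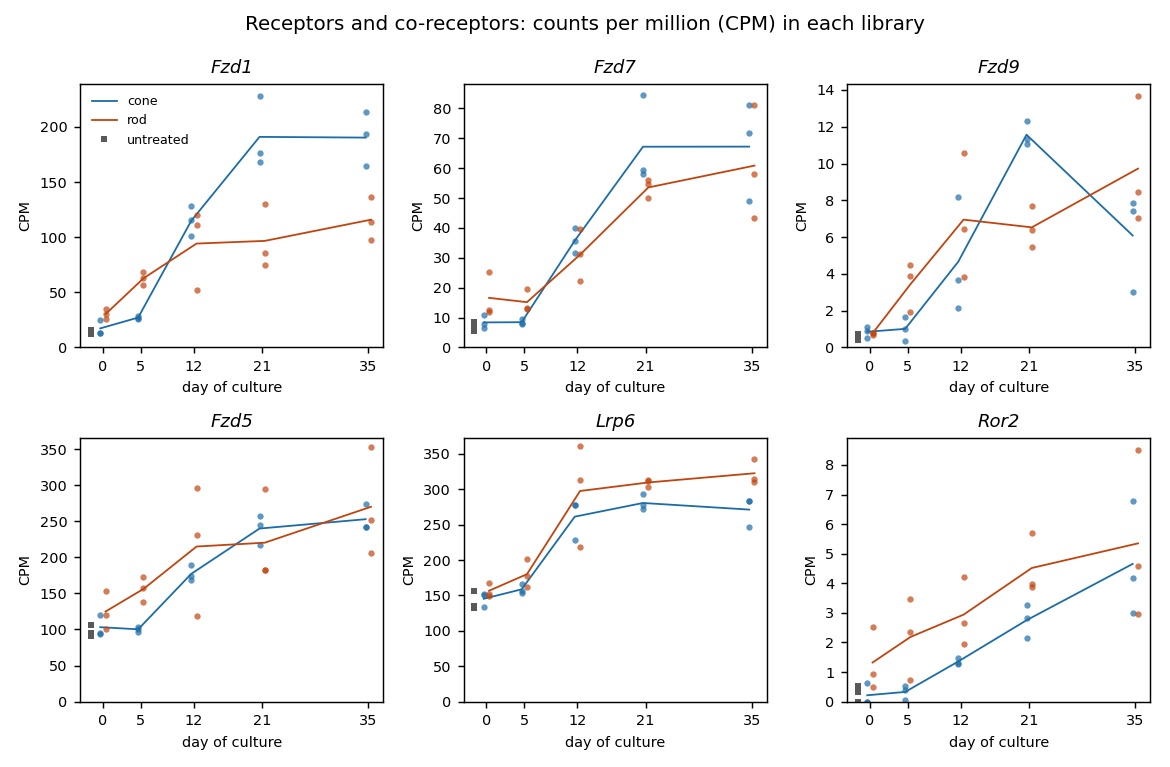
CPM (vertical axes) by day of culture (horizontal axes) for Fzd1, Fzd7, Fzd9, Fzd5, Lrp6 and Ror2, with 1 point per library, lines through group means, blue for cone, orange for rod and grey squares for untreated cells. Fzd1 is higher in rod on days 0 and 5 and higher in cone on days 21 and 35, and all 6 genes are higher on day 35 than on day 0.

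Fzd1 (ENSMUSG00000044674, chromosome 5, 4753839 to 4758035, minus strand), a receptor that can act through beta-catenin, was higher in rod on day 5 and in cone on day 21. Fzd1 stood at 15.4, 11.8 and 13.2 CPM in untreated cells, at 13.1, 25.2 and 13.4 in cone-primed cells and at 26.0, 30.0 and 34.5 in rod-primed cells. Cone libraries held Fzd1 at 28.4, 26.8 and 26.0 CPM on day 5, 116, 101 and 128 on day 12, 228, 176 and 169 on day 21 and 213, 164 and 194 on day 35. Rod libraries held Fzd1 at 68.4, 63.2 and 56.4 CPM on day 5, 120.2, 51.7 and 111 on day 12, 129.8, 74.4 and 85.7 on day 21 and 136, 97.6 and 114 on day 35. Rod libraries were all above cone libraries on days 0 and 5, the groups overlapped on day 12, and cone libraries were all above rod libraries on days 21 and 35. Rod-primed cells exceeded untreated cells by 1.18 ± 0.26 (adjusted p = 0.00433). The Fzd1 difference, cone minus rod, was -1.21 ± 0.25 (adjusted p = 0.00216) on day 5 and 0.98 ± 0.24 (adjusted p = 0.0101) on day 21, with -0.80 on day 0 (adjusted p = 0.0629) and 0.72 on day 35 (adjusted p = 0.0520). The test of the change with day gave an adjusted p of 0.000327. By day 35 Fzd1 had risen from primed levels by 3.45 ± 0.27 (adjusted p = 3.15e-11) in cone and by 1.94 ± 0.26 (adjusted p = 3.97e-07) in rod cultures. For Fzd1 the day 21 call was lost without cone replicate 1 or rod replicate 2 or 3 (highest adjusted p = 0.0785, without rod replicate 2).

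Fzd7 (ENSMUSG00000041075, chromosome 1, 59482424 to 59486955, plus strand), a close relative of Fzd1, also differed with rod priming. On day 0 Fzd7 was measured at 8.44, 5.47 and 7.20 CPM without treatment, 7.68, 10.9 and 6.50 after cone priming and 11.9, 12.5 and 25.3 after rod priming. In cone cultures Fzd7 read 7.68, 8.21 and 9.42 CPM on day 5, 39.9, 31.7 and 35.6 on day 12, 84.4, 59.2 and 58.0 on day 21 and 81.0, 48.9 and 71.7 on day 35. In rod cultures Fzd7 read 19.4, 12.8 and 13.2 CPM on day 5, 39.8, 22.2 and 31.1 on day 12, 55.9, 54.7 and 50.1 on day 21 and 43.4, 81.3 and 57.9 on day 35. The rod-primed libraries were above the cone-primed and untreated ones, with replicate 3 the highest, and the groups overlapped on day 35. Rod-primed exceeded untreated cells by 1.27 ± 0.29 (adjusted p = 0.00596), and cone-primed minus rod-primed was -0.99 ± 0.29 (adjusted p = 0.0381). By day 35 Fzd7 had risen from primed levels by 2.99 ± 0.29 (adjusted p = 1.92e-09) in cone and by 1.86 ± 0.28 (adjusted p = 2.52e-06) in rod cultures. The first call was lost without rod-primed replicate 3 (adjusted p = 0.118), and the second without cone-primed replicate 1 or 3 or rod-primed replicate 3 (highest adjusted p = 0.411, without rod-primed replicate 3) and with the compared libraries only (adjusted p = 0.0806).

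Fzd9 (ENSMUSG00000049551, chromosome 5, 135248938 to 135251230, minus strand), a receptor expressed in the developing nervous system, rose in both cultures. Day 0 Fzd9 levels were 0.384, 0.734 and 0.747 CPM in untreated cells, 1.13, 0.889 and 0.524 in cone-primed cells and 0.678, 0.806 and 0.808 in rod-primed cells. Cone Fzd9 levels were 1.67, 0.365 and 0.988 CPM on day 5, 8.16, 3.65 and 2.17 on day 12, 12.3, 11.0 and 11.3 on day 21 and 7.42, 3.00 and 7.83 on day 35. Rod Fzd9 levels were 4.49, 1.93 and 3.89 CPM on day 5, 3.86, 10.6 and 6.42 on day 12, 6.41, 5.48 and 7.69 on day 21 and 13.7, 7.03 and 8.46 on day 35. Rod was above cone in every library of day 5, and cone was above rod in every library of day 21. The Fzd9 difference, cone minus rod, was -1.76 ± 0.50 (adjusted p = 0.0239) on day 5 and 0.82 on day 21 (adjusted p = 0.259). For Fzd9 the day 5 call was lost without cone replicate 2 or 3 or rod replicate 1 or 3 (highest adjusted p = 0.157, without cone replicate 2). By day 35 Fzd9 had risen from primed levels by 2.84 ± 0.53 (adjusted p = 4.98e-05) in cone and by 3.64 ± 0.54 (adjusted p = 2.25e-06) in rod cultures.

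Fzd2 (ENSMUSG00000050288, chromosome 11, 102604396 to 102608058, plus strand), like Fzd7 a close relative of Fzd1, fell by day 5 in both cultures. On day 0 Fzd2 was measured at 10.5, 8.20 and 9.10 CPM without treatment, 8.68, 11.3 and 9.01 after cone priming and 9.63, 9.07 and 10.7 after rod priming. In cone cultures Fzd2 read 5.55, 5.35 and 5.52 CPM on day 5, 10.8, 8.85 and 10.9 on day 12, 17.6, 11.7 and 16.1 on day 21 and 22.5, 9.96 and 17.8 on day 35. In rod cultures Fzd2 read 5.62, 4.50 and 4.51 CPM on day 5, 8.93, 5.59 and 7.79 on day 12, 12.5, 12.4 and 10.4 on day 21 and 12.2, 16.7 and 11.4 on day 35. All day 5 libraries were below all primed libraries of their own treatment. The log2 fold change from primed cells to day 5 was -0.83 ± 0.23 (adjusted p = 0.0100) in cone and -1.01 ± 0.23 (adjusted p = 0.00337) in rod cultures. Cone minus rod across days 5 to 35 was 0.33 ± 0.11 (adjusted p = 0.0288), a call lost in 10 of 24 fits that each left out 1 library (highest adjusted p = 0.0742, without cone day 35 replicate 1) and with the compared libraries only (adjusted p = 0.0573). The cone day 5 call was lost without cone-primed replicate 2 (adjusted p = 0.0727), and the cone day 35 call (0.79) without cone day 35 replicate 1 (adjusted p = 0.0556).

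Fzd10 (ENSMUSG00000081683, chromosome 5, 128600844 to 128604093, plus strand) had the lowest level per length of the Frizzled genes, 0.403 CPM per kb over all libraries. Day 0 Fzd10 levels were 2.17, 0.667 and 0.407 CPM in untreated cells, 2.39, 0.566 and 1.89 in cone-primed cells and 1.09, 0.907 and 0.269 in rod-primed cells. Cone Fzd10 levels were 0.735, 0.608 and 0.930 CPM on day 5, 2.92, 1.63 and 2.47 on day 12, 2.76, 2.14 and 2.44 on day 21 and 2.30, 1.97 and 1.05 on day 35. Rod Fzd10 levels were 1.12, 0.429 and 0.278 CPM on day 5, 1.64, 0.819 and 0.865 on day 12, 1.70, 0.618 and 0.978 on day 21 and 0.510, 1.13 and 0.839 on day 35. Cone group means were above rod group means on every day, and the difference across days 5 to 35 was 0.92 ± 0.29 (adjusted p = 0.0169). No single day passed the test.

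The other Frizzled genes did not pass the cone against rod test on any day and moved with time. Fzd4, the receptor of Norrin in retinal vessels, read 4.15 to 9.79 CPM on day 0 and 14.9 to 38.8 on day 35, with the highest value in rod day 35 replicate 2. Fzd5 read 90.5 to 153 CPM on day 0 and 207 to 352 on day 35, and Fzd6, a receptor of planar polarity, read 2.27 to 10.8 and 32.2 to 41.1. Fzd8, the close paralogue of Fzd5, read 5.25 to 9.63 CPM on day 0 and 14.0 to 24.7 on day 35. Their log2 fold changes from primed cells to day 35 ran from 1.29 (Fzd5) to 2.83 (Fzd6) in cone and from 1.09 (Fzd8) to 2.19 (Fzd6) in rod cultures. Fzd3 read 74.8 to 98.5 CPM on day 0 and 46.4 to 58.4 on day 35.

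The 4 co-receptors all passed the filter and all rose from primed cells to day 35 in both cultures, with a median log2 fold change of 1.09 in cone and 1.18 in rod cultures. Of all genes 31.1% rose in cone and 29.4% in rod cultures. Across days 5 to 35 Lrp6, Ror1 and Ror2 were lower in cone, where 12.2% of all genes were, and Lrp5 did not pass the test (0.20, adjusted p = 0.105).

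Ror2 (ENSMUSG00000021464, chromosome 13, 53109312 to 53286124, minus strand), a receptor tyrosine kinase that binds Wnt5a, had the lowest level per length of the 4, 0.555 CPM per kb over all libraries. Ror2 stood at 0.512, 0 and 0.340 CPM in untreated cells, at 0, 0.647 and 0 in cone-primed cells and at 0.949, 0.504 and 2.51 in rod-primed cells. Cone libraries held Ror2 at 0.401, 0.0608 and 0.523 CPM on day 5, 1.28, 1.32 and 1.47 on day 12, 3.28, 2.82 and 2.15 on day 21 and 4.18, 3.00 and 6.78 on day 35. Rod libraries held Ror2 at 3.48, 0.715 and 2.36 CPM on day 5, 4.21, 2.66 and 1.95 on day 12, 3.86, 5.71 and 3.98 on day 21 and 4.59, 8.49 and 2.97 on day 35. Rod libraries were above cone libraries on days 5, 12 and 21, and the groups overlapped on days 0 and 35. The Ror2 difference, cone minus rod, was -2.66 ± 0.76 (adjusted p = 0.0241) on day 5 and -1.17 ± 0.33 (adjusted p = 0.00822) across days 5 to 35. For Ror2 the day 5 call was lost without cone replicate 1 or 2 or rod replicate 1 or 3 (highest adjusted p = 0.138, without rod replicate 1). The rod rise to day 35 (1.97) was lost without rod-primed replicate 1 or 2 or rod day 35 replicate 2 (highest adjusted p = 0.0857, without rod day 35 replicate 2). The cone rise to day 35 was 4.14 ± 0.82 (adjusted p = 9.99e-05), where 2 cone-primed libraries were at 0. Ror2 had a log2 fold change of 2.90 for rod day 35 against primed without rod-primed replicate 3. Without cone-primed replicate 2 the cone-primed group held no Ror2 count.

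Ror1 (ENSMUSG00000035305, chromosome 4, 100095791 to 100444765, plus strand), its paralogue, was at 5.13 CPM per kb. On day 0 Ror1 was measured at 16.9, 16.8 and 17.7 CPM without treatment, 16.4, 23.6 and 17.2 after cone priming and 20.5, 23.8 and 24.5 after rod priming. In cone cultures Ror1 read 12.7, 14.1 and 13.8 CPM on day 5, 29.6, 22.7 and 32.4 on day 12, 43.3, 44.2 and 45.5 on day 21 and 40.0, 33.6 and 34.3 on day 35. In rod cultures Ror1 read 26.8, 19.5 and 25.7 CPM on day 5, 39.3, 29.4 and 35.1 on day 12, 40.8, 45.3 and 39.9 on day 21 and 44.6, 44.7 and 40.0 on day 35. Rod libraries were all above cone libraries on day 5, where cone minus rod was -0.82 ± 0.14 (adjusted p = 0.000454), and across days 5 to 35 it was -0.33 ± 0.07 (adjusted p = 0.000867). By day 35 Ror1 had risen from primed levels by 0.91 in cone and by 0.91 in rod cultures.

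Lrp6 (ENSMUSG00000030201, chromosome 6, 134446476 to 134566965, minus strand) and Lrp5 (ENSMUSG00000024913, chromosome 19, 3584828 to 3686564, minus strand), which carry the beta-catenin branch with Frizzled receptors, were at 16.8 and 9.24 CPM per kb over all libraries. Day 0 Lrp6 levels were 156, 132 and 135 CPM in untreated cells, 152, 151 and 133 in cone-primed cells and 153, 149 and 168 in rod-primed cells. Cone Lrp6 levels were 156, 153 and 166 CPM on day 5, 277, 229 and 278 on day 12, 277, 293 and 272 on day 21 and 284, 247 and 283 on day 35. Rod Lrp6 levels were 178, 201 and 162 CPM on day 5, 361, 218 and 314 on day 12, 312, 303 and 313 on day 21 and 314, 343 and 310.1 on day 35. Every day 35 library was above every day 0 library. By day 35 Lrp6 had risen from primed levels by 0.90 ± 0.12 (adjusted p = 6.58e-07) in cone and by 1.04 ± 0.12 (adjusted p = 8.39e-08) in rod cultures. Cone was lower than rod across days 5 to 35, at -0.19 ± 0.06 (adjusted p = 0.0212). Lrp5 stood at 67.8, 49.3 and 61.9 CPM in untreated cells, at 61.4, 70.6 and 48.0 in cone-primed cells and at 60.2, 51.7 and 59.3 in rod-primed cells. Cone libraries held Lrp5 at 55.1, 39.3 and 63.9 CPM on day 5, 98.4, 78.9 and 108 on day 12, 129.6, 166 and 131 on day 21 and 165, 115 and 153 on day 35. Rod libraries held Lrp5 at 51.2, 40.5 and 52.4 CPM on day 5, 76.4, 58.1 and 97.0 on day 12, 104, 118 and 112 on day 21 and 138, 153 and 137 on day 35. Lrp5 rose by 1.27 ± 0.19 (adjusted p = 2.00e-06) in cone and by 1.32 ± 0.19 (adjusted p = 1.34e-06) in rod cultures, with no overlap between primed cells and day 35 in either.

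Of the 8 secreted inhibitors 7 passed the filter, and Sfrp5 had 8 counts in all. Cone was higher than rod for Sfrp1, Frzb and Dkk2 and lower for Sfrp2 across days 5 to 35, where 15.6% of all genes were higher and 12.2% lower. On day 0 Sfrp2 was the most abundant inhibitor, at 29.8 ± 9.28 CPM per kb without treatment, 36.0 ± 21.9 after cone priming and 137 ± 9.56 after rod priming. Sfrp1 was then at 1.89 ± 0.447, 1.91 ± 1.14 and 1.31 ± 0.394 in the same order. On day 35 the order was reversed, with Sfrp1 at 53.6 ± 6.94 CPM per kb in cone and 14.4 ± 1.63 in rod cultures and Sfrp2 at 0.0648 ± 0.0219 and 0.130 ± 0.0243. The plot of inhibitor levels shows this exchange.

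**Figure D4:**
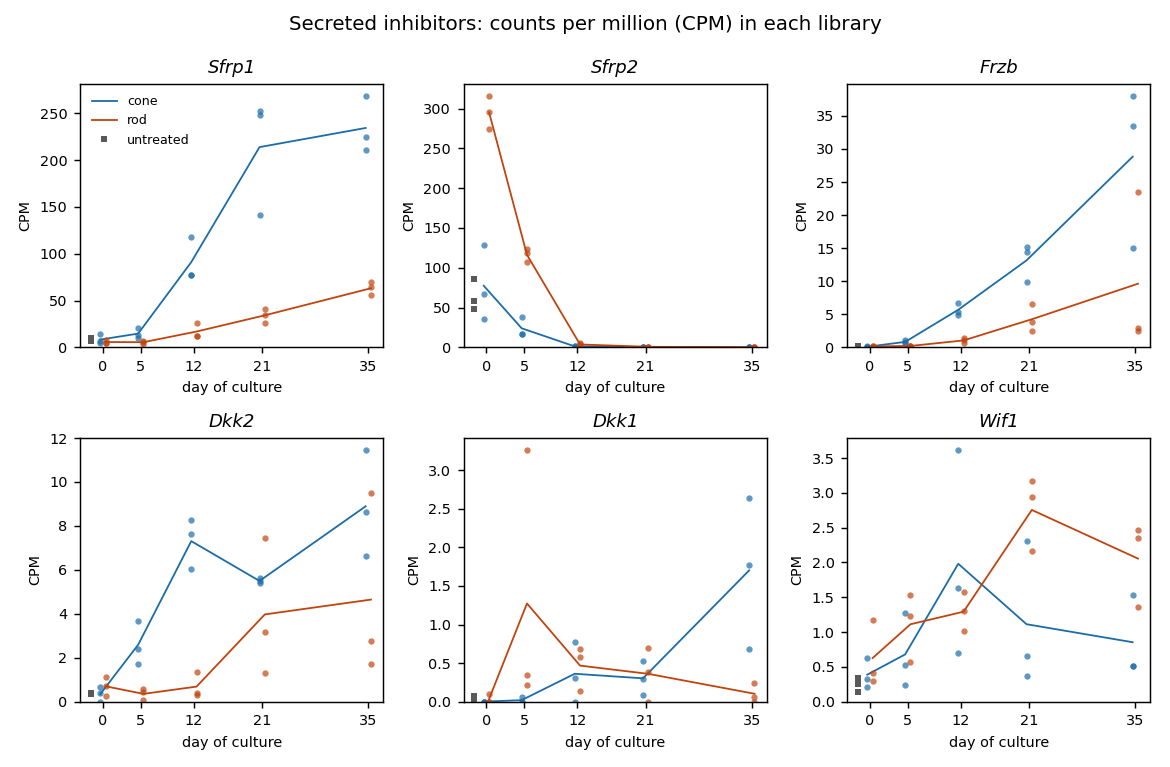
CPM (vertical axes) by day of culture (horizontal axes) for 6 secreted inhibitors, with 1 point per library, lines through group means, blue for cone, orange for rod and grey squares for untreated cells. Sfrp2 falls from day 0 to near 0 by day 12, Sfrp1 and Frzb rise, and Sfrp1 in cone libraries is above rod libraries from day 5.

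Sfrp1 (ENSMUSG00000031548, chromosome 8, 23411502 to 23449632, plus strand), which binds Wnt ligands through a domain like that of Frizzled receptors, rose in both cultures and was higher in cone. Sfrp1 stood at 7.29, 7.00 and 10.5 CPM in untreated cells, at 4.28, 13.9 and 6.81 in cone-primed cells and at 4.75, 4.74 and 7.72 in rod-primed cells. Cone libraries held Sfrp1 at 20.2, 10.5 and 13.5 CPM on day 5, 77.1, 77.7 and 118 on day 12, 248, 253 and 141 on day 21 and 268, 210.2 and 224 on day 35. Rod libraries held Sfrp1 at 3.93, 7.22 and 5.42 CPM on day 5, 26.0, 12.6 and 12.3 on day 12, 41.5, 26.5 and 34.8 on day 21 and 55.4, 69.4 and 64.6 on day 35. The groups overlapped on day 0, and every cone library was above every rod library of its day from day 5 to day 35. Cone exceeded rod by 1.39 ± 0.36 (adjusted p = 0.0132) on day 5, 2.43 ± 0.33 (adjusted p = 1.79e-05) on day 12, 2.64 ± 0.33 (adjusted p = 6.41e-06) on day 21 and 1.89 ± 0.32 (adjusted p = 0.000201) on day 35. By day 35 Sfrp1 had risen from primed levels by 4.77 ± 0.38 (adjusted p = 3.10e-11) in cone and by 3.44 ± 0.37 (adjusted p = 1.52e-08) in rod cultures. For Sfrp1 the day 5 call was lost without cone replicate 1 or rod replicate 1 or 3 (highest adjusted p = 0.0889, without cone replicate 1), and those of days 12, 21 and 35 held without any 1 library. Sfrp1 had a log2 fold change of 5.39 for cone day 35 against primed without cone-primed replicate 2.

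Sfrp2 (ENSMUSG00000027996, chromosome 3, 83766321 to 83774316, plus strand), a second member of the family that is expressed in embryonic retina, went the other way. Day 0 Sfrp2 levels were 86.3, 58.2 and 47.7 CPM in untreated cells, 67.5, 129 and 35.9 in cone-primed cells and 296, 274 and 316 in rod-primed cells. Cone Sfrp2 levels were 16.8, 16.8 and 38.4 CPM on day 5, 1.63, 1.55 and 0.619 on day 12, 0.262, 0.770 and 0.222 on day 21 and 0.0853, 0.172 and 0.161 on day 35. Rod Sfrp2 levels were 107, 124 and 118 CPM on day 5, 1.79, 4.16 and 5.05 on day 12, 0.618, 0.772 and 0.782 on day 21 and 0.340, 0.243 and 0.258 on day 35. Rod-primed libraries were above all other day 0 libraries, rod stayed above cone in every library of days 5, 12 and 35, and all day 35 libraries were under 1 CPM. Rod-primed exceeded untreated cells by 2.21 ± 0.34 (adjusted p = 8.67e-05), and cone minus rod was -1.93 ± 0.34 (adjusted p = 0.000504) on day 0 and -2.27 ± 0.35 (adjusted p = 8.45e-05) on day 5. From primed cells to day 35 it fell in cone (adjusted p = 2.61e-12), where the day 35 libraries held 5 counts in all, and by 10.00 on the log2 scale in rod cultures (SE 0.57, adjusted p = 2.68e-13). These calls held in every fit that left out 1 library. Sfrp2 had a log2 fold change of -2.52 between the primed groups without cone-primed replicate 2.

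Frzb (ENSMUSG00000027004, chromosome 2, 80411970 to 80447625, minus strand), another protein with a Frizzled-like domain, rose from near 0. On day 0 Frzb was measured at 0.128, 0.200 and 0 CPM without treatment, 0.126, 0.162 and 0 after cone priming and 0.271, 0 and 0.180 after rod priming. In cone cultures Frzb read 1.07, 0.608 and 0.814 CPM on day 5, 6.76, 4.89 and 5.41 on day 12, 14.4, 9.84 and 15.2 on day 21 and 38.0, 15.0 and 33.5 on day 35. In rod cultures Frzb read 0.225, 0.214 and 0.208 CPM on day 5, 1.07, 1.36 and 0.721 on day 12, 3.78, 6.56 and 2.41 on day 21 and 2.46, 23.4 and 2.97 on day 35. Cone libraries were above rod libraries on days 5, 12 and 21, and on day 35 rod replicate 2 stood far above the other rod libraries and inside the cone range. Cone exceeded rod by 2.41 ± 0.63 (adjusted p = 0.0138) on day 12 and by 1.88 ± 0.34 (adjusted p = 0.000120) across days 5 to 35, and day 35 was 1.59 (adjusted p = 0.0509). Day 35 was higher than primed cells in cone (adjusted p = 2.09e-08, with 1 to 3 counts in the primed group) and in rod cultures (adjusted p = 2.67e-06, with 4 counts in the primed group). For Frzb the day 12 call was lost without rod replicate 3 (adjusted p = 0.0727). Mesenchyme markers were also higher in cone across days 5 to 35 in 5 of 9 genes and lower in 2, against 15.6% and 12.2% of all genes. Microglia and pigment epithelium markers were higher too, in 4 of 4 and 3 of 3 tested, and the part of these lists was not tested.

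Dkk2 (ENSMUSG00000028031, chromosome 3, 132085292 to 132180304, plus strand), a Dickkopf protein that binds Lrp5 and Lrp6, was higher in cone cultures early. Dkk2 stood at 0.384, 0.400 and 0.340 CPM in untreated cells, at 0.378, 0.647 and 0 in cone-primed cells and at 0.271, 1.11 and 0.718 in rod-primed cells. Cone libraries held Dkk2 at 2.41, 1.70 and 3.66 CPM on day 5, 8.28, 7.61 and 6.03 on day 12, 5.38, 5.48 and 5.63 on day 21 and 11.4, 6.61 and 8.64 on day 35. Rod libraries held Dkk2 at 0.562, 0.429 and 0.0694 CPM on day 5, 1.36, 0.409 and 0.288 on day 12, 3.17, 1.31 and 7.43 on day 21 and 1.70, 2.75 and 9.49 on day 35. Cone was above rod in every library of days 5 and 12, and rod replicate 3 was the highest rod library on days 21 and 35. Cone exceeded rod by 2.94 ± 0.76 (adjusted p = 0.0134) on day 5, 3.40 ± 0.67 (adjusted p = 0.00117) on day 12 and 1.93 ± 0.32 (adjusted p = 4.91e-05) across days 5 to 35. By day 35 Dkk2 had risen from primed levels by 4.59 in cone and 2.68 in rod cultures, the latter lost without rod day 35 replicate 3 (adjusted p = 0.0592). For Dkk2 the day 5 call was lost without cone replicate 3 or rod replicate 3 (highest adjusted p = 0.0844, without rod replicate 3). Dkk2 had a log2 fold change of 4.33 on day 12 without rod day 12 replicate 1, 5.60 for cone day 35 against primed without cone-primed replicate 2, 3.99 for cone day 35 against primed without cone-primed replicate 3 and 1.58 for rod day 35 against primed without rod day 35 replicate 3.

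Dkk1 (ENSMUSG00000024868, chromosome 19, 30545863 to 30549665, minus strand), an inhibitor of the same co-receptors, was near the floor in most libraries. Day 0 Dkk1 levels were 0, 0.0667 and 0 CPM in untreated cells, 0, 0 and 0 in cone-primed cells and 0, 0.101 and 0 in rod-primed cells. Cone Dkk1 levels were 0, 0 and 0.0581 CPM on day 5, 0, 0.311 and 0.773 on day 12, 0.525, 0.0856 and 0.296 on day 21 and 2.65, 0.687 and 1.78 on day 35. Rod Dkk1 levels were 3.26, 0.214 and 0.347 CPM on day 5, 0.143, 0.682 and 0.577 on day 12, 0.386, 0.695 and 0 on day 21 and 0, 0.243 and 0.0646 on day 35. Rod day 5 replicate 1 was the highest of all, and cone day 35 was above rod day 35. On day 5 cone was lower (1 to 3 counts, adjusted p = 0.0160) and on day 35 higher (adjusted p = 0.0235), where the rod libraries held 4 counts in all and none more than 3, so no fold is given. The first call was lost without cone replicate 1 or 2 or rod replicate 1 (highest adjusted p = 0.261, without rod replicate 1). The second was lost without cone replicate 1 or 3 or rod replicate 1 or 3 (highest adjusted p = 0.103, without rod replicate 1). Cone day 35 was at least 5.47-fold higher than cone-primed cells (adjusted p = 0.00109).

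Wif1, which binds Wnt ligands directly, held 0.136 to 1.17 CPM on day 0, 0.512 to 1.53 in cone and 1.36 to 2.46 in rod cultures on day 35. Its rise in rod cultures (1.64, adjusted p = 0.0401) was lost without rod-primed replicate 1 or 2 or rod day 35 replicate 1 or 2 (highest adjusted p = 0.157, without rod-primed replicate 2). It was also lost without the filter (adjusted p = 0.0547) and with a replicate block (adjusted p = 0.0520). Wif1 passed the cone against rod test on no day. Sfrp4 ranged from 0.128 to 2.36 CPM over all libraries and was called in no comparison. Wif1 had a log2 fold change of 2.51 for rod day 35 against primed without rod-primed replicate 3.

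The 7 targets, genes that beta-catenin with Tcf and Lef factors is known to switch on, did not move as 1 group. Nkd1, Notum and Tcf7 were lower in cone than in rod cultures across days 5 to 35 and 0 were higher (median log2 fold change -0.26). Of all genes 12.2% were lower and 15.6% higher. By day 35 Axin2, Znrf3 and Tcf7 were higher and Nkd1 and Lef1 lower than in primed cells in cone cultures, while in rod cultures Notum, Znrf3 and Tcf7 were higher and Nkd1 was lower. Over the same time 31.1% of all genes rose and 26.5% fell in cone, and 29.4% rose and 26.2% fell in rod cultures. The plot of target levels shows 6 of them.

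**Figure D5:**
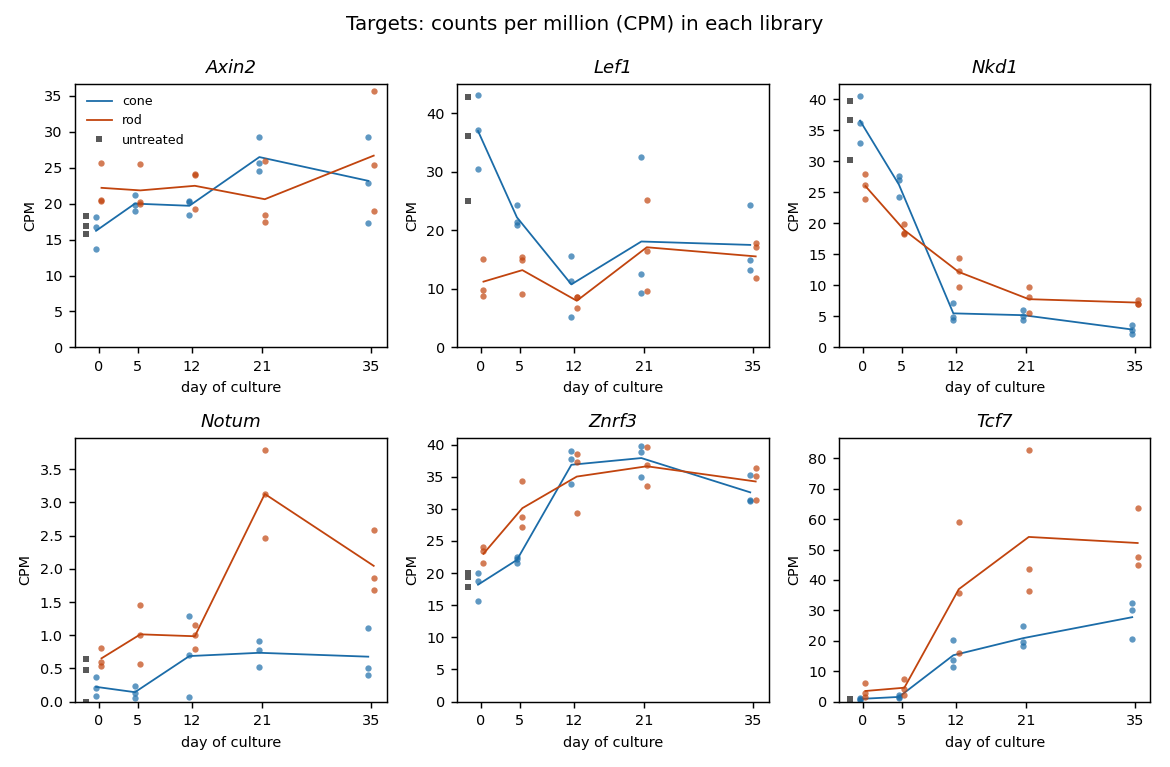
CPM (vertical axes) by day of culture (horizontal axes) for 6 targets, with 1 point per library, lines through group means, blue for cone, orange for rod and grey squares for untreated cells. Axin2 stays between 13.7 and 35.6 CPM in all libraries, Nkd1 falls, Tcf7 rises, and Lef1 is low in rod-primed cells.

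Axin2 (ENSMUSG00000000142, chromosome 11, 108920349 to 108950783, plus strand), a scaffold protein that limits beta-catenin and is induced by it, was measured at a similar level in all groups. On day 0 Axin2 was measured at 15.7, 16.9 and 18.3 CPM without treatment, 13.7, 16.8 and 18.1 after cone priming and 20.3, 25.7 and 20.6 after rod priming. In cone cultures Axin2 read 19.8, 21.2 and 18.9 CPM on day 5, 18.4, 20.3 and 20.4 on day 12, 25.6, 29.3 and 24.6 on day 21 and 17.3, 29.3 and 22.9 on day 35. In rod cultures Axin2 read 19.9, 20.2 and 25.5 CPM on day 5, 24.0, 19.3 and 24.2 on day 12, 25.9, 17.5 and 18.5 on day 21 and 35.6, 19.0 and 25.4 on day 35. Over all 33 libraries it ran from 13.7 to 35.6 CPM, and only the day 0 cone-primed and rod-primed libraries did not overlap among the cone and rod groups of the same day. The Axin2 difference, cone minus rod, was between -0.45 (day 0) and 0.36 (day 21), with adjusted p-values of 0.181 and 0.269. Cone day 35 exceeded cone-primed cells by 0.51 ± 0.19 (adjusted p = 0.0268), and the groups overlapped. This call was lost without cone-primed replicate 1 or cone day 35 replicate 2 or 3 (highest adjusted p = 0.239, without cone day 35 replicate 2), without the filter (adjusted p = 0.0611) and with the compared libraries only (adjusted p = 0.0710).

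Lef1 (ENSMUSG00000027985, chromosome 3, 131110471 to 131224356, plus strand), a transcription factor that binds beta-catenin, was low in rod-primed cells. Day 0 Lef1 levels were 42.9, 36.1 and 25.1 CPM in untreated cells, 43.2, 30.6 and 37.2 in cone-primed cells and 15.1, 8.77 and 9.88 in rod-primed cells. Cone Lef1 levels were 20.8, 21.5 and 24.4 CPM on day 5, 15.6, 11.4 and 5.26 on day 12, 9.32, 32.4 and 12.5 on day 21 and 14.9, 13.2 and 24.4 on day 35. Rod Lef1 levels were 9.10, 15.0 and 15.5 CPM on day 5, 6.71, 8.53 and 8.65 on day 12, 9.57, 25.2 and 16.5 on day 21 and 17.1, 11.8 and 17.8 on day 35. All rod-primed libraries were below all untreated and cone-primed libraries, rod was still below cone on day 5, and the groups overlapped from day 12 on. Rod-primed minus untreated was -1.63 ± 0.40 (adjusted p = 0.00868), and cone-primed minus rod-primed was 1.73 ± 0.40 (adjusted p = 0.00722). Both calls were lost without rod-primed replicate 3 (adjusted p = 0.0563 and 0.0528). In cone cultures Lef1 fell to day 35 by 1.07 on the log2 scale (adjusted p = 0.0185), a call lost without cone-primed replicate 1 or cone day 35 replicate 1 or 2 (highest adjusted p = 0.0762, without cone day 35 replicate 2).

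Nkd1 (ENSMUSG00000031661, chromosome 8, 88521354 to 88594884, plus strand), a feedback inhibitor that binds Dishevelled, fell in both cultures and ended lower in cone. Nkd1 stood at 39.7, 30.1 and 36.7 CPM in untreated cells, at 36.1, 40.6 and 32.9 in cone-primed cells and at 27.9, 23.9 and 26.1 in rod-primed cells. Cone libraries held Nkd1 at 24.3, 27.5 and 26.9 CPM on day 5, 7.23, 4.35 and 4.87 on day 12, 5.12, 4.45 and 6.00 on day 21 and 3.58, 2.23 and 2.82 on day 35. Rod libraries held Nkd1 at 18.3, 19.9 and 18.4 CPM on day 5, 12.3, 9.76 and 14.4 on day 12, 9.73, 8.11 and 5.48 on day 21 and 7.65, 7.03 and 6.97 on day 35. Cone libraries were above rod libraries on days 0 and 5 and below them on days 12 and 35, with overlap on day 21. From primed cells to day 35 it fell by 3.66 on the log2 scale in cone (SE 0.21, adjusted p = 1.32e-13) and by 1.85 in rod cultures (SE 0.19, adjusted p = 7.97e-09). The Nkd1 difference, cone minus rod, was 0.49 on day 0 (adjusted p = 0.101), -1.16 ± 0.20 (adjusted p = 0.000235) on day 12 and -1.32 ± 0.21 (adjusted p = 0.000100) on day 35. The change with day had an adjusted p of 4.05e-05. For Nkd1 the day 12 call was lost in a model of the compared libraries only (adjusted p = 0.0791).

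Tcf7 (ENSMUSG00000000782, chromosome 11, 52252371 to 52283014, minus strand), a partner of beta-catenin whose own transcription the pathway raises, had the lower group mean in cone on every day. On day 0 Tcf7 was measured at 0.895, 0.934 and 0.679 CPM without treatment, 1.26, 0.485 and 0.943 after cone priming and 2.98, 1.51 and 6.02 after rod priming. In cone cultures Tcf7 read 2.07, 1.40 and 1.16 CPM on day 5, 11.5, 13.8 and 20.4 on day 12, 24.9, 19.5 and 18.2 on day 21 and 30.1, 32.4 and 20.7 on day 35. In rod cultures Tcf7 read 4.16, 2.29 and 7.29 CPM on day 5, 59.2, 15.9 and 35.8 on day 12, 82.6, 36.3 and 43.6 on day 21 and 63.7, 45.04 and 47.7 on day 35. Rod libraries were above cone libraries on days 0, 5, 21 and 35 and overlapped with them on day 12. Rod-primed exceeded untreated cells by 2.09 ± 0.60 (adjusted p = 0.0247). By day 35 Tcf7 had risen from primed levels by 5.01 ± 0.56 (adjusted p = 1.71e-08) in cone and by 3.86 ± 0.47 (adjusted p = 1.01e-07) in rod cultures. The Tcf7 difference, cone minus rod, was -1.28 ± 0.21 (adjusted p = 4.30e-05) across days 5 to 35, a call that held in every fit that left out 1 library. On single days it was -2.05 (day 0), -1.58 (day 5), -1.27 (day 12) and -1.38 (day 21), all called, and -0.91 on day 35 (adjusted p = 0.143). For Tcf7 the day 0 call was lost without cone-primed replicate 1, 2 or 3 or rod-primed replicate 1 or 3 (highest adjusted p = 0.378, without rod-primed replicate 3). The call between rod-primed and untreated cells was lost without untreated replicate 2 or 3 or rod-primed replicate 3 (highest adjusted p = 0.287, without rod-primed replicate 3). For Tcf7 the day 5 call was lost without cone replicate 1, 2 or 3 or rod replicate 1 or 3 (highest adjusted p = 0.299, without rod replicate 3). For Tcf7 the day 12 call was lost without cone replicate 1, 2 or 3 or rod replicate 1 or 3 (highest adjusted p = 0.239, without rod replicate 1). For Tcf7 the day 21 call was lost without cone replicate 2 or 3 or rod replicate 1 (highest adjusted p = 0.177, without rod replicate 1). For Tcf7 the day 5 call was also lost with RLE size factors (adjusted p = 0.0510) and the day 12 call with the compared libraries only (adjusted p = 0.230). Tcf7 had a log2 fold change of -1.35 between the primed groups without rod-primed replicate 3, 1.39 between rod-primed and untreated cells without rod-primed replicate 3 and 4.57 for rod day 35 against primed without rod-primed replicate 3.

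Notum (ENSMUSG00000042988, chromosome 11, 120653788 to 120661175, minus strand), an enzyme that removes the lipid from Wnt ligands, was higher in rod cultures. Day 0 Notum levels were 0.640, 0 and 0.475 CPM in untreated cells, 0.378, 0.0808 and 0.210 in cone-primed cells and 0.814, 0.605 and 0.539 in rod-primed cells. Cone Notum levels were 0.134, 0.0608 and 0.232 CPM on day 5, 1.28, 0.699 and 0.0773 on day 12, 0.918, 0.770 and 0.518 on day 21 and 0.512, 1.12 and 0.404 on day 35. Rod Notum levels were 1.01, 0.572 and 1.46 CPM on day 5, 0.785, 1.16 and 1.01 on day 12, 3.78, 2.47 and 3.13 on day 21 and 1.87, 2.59 and 1.68 on day 35. Rod was above cone in every library of days 5, 21 and 35, and the groups overlapped on day 12. The Notum difference, cone minus rod, was -1.76 ± 0.32 (adjusted p = 0.000157) across days 5 to 35, -2.74 ± 0.74 (adjusted p = 0.0169) on day 5 and -2.11 ± 0.60 (adjusted p = 0.0265) on day 21. For Notum the day 5 call was lost without cone replicate 1 or 2 or rod replicate 3 (highest adjusted p = 0.0964, without cone replicate 2), and the day 21 call without cone replicate 2 or 3 or rod replicate 1 or 3 (highest adjusted p = 0.116, without cone replicate 3). The rod rise to day 35 (1.65) was lost without rod-primed replicate 2 or 3 or rod day 35 replicate 2 (highest adjusted p = 0.0881, without rod-primed replicate 3).

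Rnf43 and Znrf3 encode paired ubiquitin ligases that remove Frizzled receptors from the cell surface. Znrf3 read 15.7 to 24.0 CPM on day 0 and 31.2 to 36.3 on day 35, higher by 0.84 in cone and 0.58 in rod cultures on the log2 scale. On day 5 cone minus rod was -0.45 for Znrf3 (adjusted p = 0.0102), a call lost without cone replicate 1 or 2 or rod replicate 2 (highest adjusted p = 0.0822, without rod replicate 2) and without the filter (adjusted p = 0.0552). Rnf43 stayed between 0.0773 and 1.16 CPM in all libraries and was called in no comparison.

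Other genes of the pathway were counted by list across days 5 to 35. The 2 with the smallest p in each list are named, and the other Lgr receptors beside Lgr5. Over all genes 15.6% were called higher in cone and 12.2% lower (27.8% in all). Among genes for Wnt secretion, R-spondins and their Lgr receptors, cone was 3 higher and 1 lower of 8 tested. Rspo3, an R-spondin that protects Frizzled receptors from Znrf3 and Rnf43, averaged 3.20 CPM in cone and 0.0818 in rod cultures (adjusted p = 5.95e-08). Among the Lgr receptors of R-spondins, Lgr5 was higher in cone by 1.73 ± 0.22 (adjusted p = 1.27e-06). The more abundant Lgr4 was lower, at 75.5 CPM in cone and 97.5 in rod cultures (-0.36 ± 0.07, adjusted p = 0.000117). Lgr6 averaged 0.795 CPM in cone and 4.27 in rod cultures and did not pass the test (adjusted p = 0.279). Other antagonists were 0 higher and 3 lower of 6 tested, with Dkk3, a divergent Dickkopf relative, at 1333 CPM in cone and 2235 in rod cultures (-0.92 ± 0.09, adjusted p = 1.07e-08) and Tpbg at -0.59 ± 0.14 (adjusted p = 0.00304). Cytoplasmic and nuclear machinery was 3 higher and 3 lower of 17 tested, with Apc2, a relative of Apc found in neurons, at -1.05 ± 0.07 (adjusted p = 3.30e-11) and Dvl1, a Dishevelled gene, at 0.28 ± 0.07 (adjusted p = 0.00163). Planar polarity and other receptors were 3 higher and 3 lower of 10 tested, with Celsr1 at -1.03 ± 0.12 (adjusted p = 2.38e-07) and Prickle1 at 0.60 ± 0.10 (adjusted p = 4.33e-05). Other targets were 1 higher and 1 lower of 4 tested, with Nkd2 at 1.61 ± 0.38 (adjusted p = 0.00192) and Tnfrsf19 at -1.14 ± 0.29 (adjusted p = 0.00426). Of the other ligands Wnt9b alone passed the filter and did not pass the test (-0.05 ± 0.31, adjusted p = 0.930). From primed cells to day 35 the machinery list was 5 higher and 7 lower of 17 tested in cone and 6 higher and 7 lower of 17 tested in rod cultures, against 57.7% and 55.6% of all genes called.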

How the data were processed

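RNA sequencing libraries of mouse retinal progenitor cells were analysed, 33 in 11 groups of 3. The deposited files hold raw read counts per gene and TPM values, and the submitters' processing notes name HISAT2, StringTie, HTSeq and the genome build GRCm38 without saying which tool did which step. Whether the counting used strand is not given in the sources used here. Gene names came from the deposited TPM tables, whose values were not analysed: of 569 member and library pairs with at least 100 counts, 132 (23.2%) were listed at 0 TPM, among them Axin2 in 21 of 33 libraries, whose lowest count was 109. The 5 summary lines of each count table were left out. Genes held 26.9% to 34.9% of the total with these lines included.

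Genes were filtered with edgeR's filterByExpr (minimum count 10), which kept 18150, and scaled by TMM. All 33 libraries entered 1 quasi-likelihood fit with a term per group, and p-values were adjusted over all genes by Benjamini-Hochberg, with 0.05 as the threshold. Standard errors are approximate, the absolute log2 fold change divided by the square root of F. A group at 0 was compared at a floor of 3 counts per library, and groups with 1 to 3 counts got no fold, a treatment that was added after seeing the data. R 4.3.3, edgeR 4.0.16, limma 3.58.1, DESeq2 1.42.0, Python 3.11.15, numpy 2.4.6, pandas 2.3.3 and matplotlib 3.10.9 were used. Alternatives were DESeq2, RLE size factors, no filter, a filter at a mean of 1 CPM, a replicate block, only the compared libraries, and each library left out in turn.

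The members and lists were chosen with earlier results of these data known. Values in every library are given for members with a mean of at least 1 CPM that were called over the mean of days or on 2 or more days. They are also given for Axin2, Lef1 and Nkd1, and in each role for the 3 called members with the largest fitted log2 fold change by day 35. That ranking included fitted values for primed groups at 0, as for Wnt4, which was at 1.54 in cone with the primed group at the floor. On simulated counts for cone against rod on day 21 (17561 genes), 57.7% of genes changed 2-fold and 73.2% of those changed 4-fold were recovered, 100% in the right direction. Labels name no batch. The level of 1 mesenchyme marker gene is not reported here on its own.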

Additional observations from a re-analysis of the deposited data

Results flagged for a closer look

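The cone minus rod difference of 8 members changed with day (days 0, 5, 12, 21 and 35, an F test of the interaction in edgeR with Benjamini-Hochberg adjustment over all genes), where 9.22% of all genes did. For Nkd1 the adjusted p was 4.05e-05, with log2 fold changes of 0.49, 0.47, -1.16, -0.57 and -1.32 in the order of the days, positive up to day 5 and negative from day 12. Fzd1, a Frizzled receptor, had an adjusted p of 0.000327 and differences of -0.80, -1.21, 0.29, 0.98 and 0.72, negative up to day 5 and positive on days 21 and 35. Both calls held in each of the 30 fits that left out 1 library.

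The ligand Wnt7b had an adjusted p of 0.0150, lost without rod-primed replicate 3 (0.0920). The inhibitor Dkk1 had an adjusted p of 0.0179, lost without rod day 5 replicate 1 (0.0566), the library with its highest value. Dkk2 had an adjusted p of 0.0267, lost without rod-primed replicate 2, rod day 12 replicate 2 or rod day 12 replicate 3 (highest 0.0592, without rod-primed replicate 2), and differences of -0.99, 2.94, 3.40, 0.46 and 0.92. Sfrp1 had an adjusted p of 0.0333 and differences of 0.56, 1.39, 2.43, 2.64 and 1.89, and its call was lost in 10 of 30 such fits (highest 0.111, without rod-primed replicate 3). Fzd7 had an adjusted p of 0.0446 and differences of -0.99, -0.83, 0.20, 0.32 and 0.14, and its call was lost in 19 of 30 fits (highest 0.102, without cone-primed replicate 3), with the replicate block and with only the compared libraries. Ror1 had an adjusted p of 0.0398 and differences of -0.26, -0.82, -0.29, 0.08 and -0.26, and its call was lost in 19 of 30 fits (highest 0.140, without cone day 5 replicate 1) and without the filter (adjusted p = 0.105), with RLE size factors, with the filter at a mean of 1 CPM and with only the compared libraries.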

How the results depend on the processing

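Of 143 called values (a member in a comparison), 94 stayed called in every fit that left out 1 library. In the other alternatives 128 stayed called wherever an adjusted p was given, and 0 reversed. A member that an alternative did not test was not counted as lost, such as Wnt3, Wnt11 and Dkk1 under the filter at a mean of 1 CPM. DESeq2 called 8 members between cone-primed and rod-primed cells against 5 by edgeR, and a model of only the compared libraries called 4 on day 12 against 9; the cause was not tested. Leaving out 1 library gave 2 to 7 called members for cone against rod on day 0, 5 to 11 on day 5, 5 to 10 on day 12, 4 to 5 on day 21, 6 to 8 on day 35 and 17 to 21 over the mean of days. It gave 3 to 6 for rod-primed and 0 for cone-primed against untreated cells, 9 to 10 and 28 to 30 for cone days 5 and 35 against primed, 6 to 8 and 22 to 27 for rod days 5 and 35, and 4 to 10 for the change with day. With the replicate number as a block the counts on days 0, 5, 12, 21 and 35 were 5, 13, 9, 10 and 11, and 20 over the mean of days. The block gave 0 and 6 for cone and rod priming, 11 and 30 for cone days 5 and 35, 9 and 26 for rod days 5 and 35, and 8 for the change with day. Same-numbered libraries were not paired in the main fit. All 3 correlations of same-numbered deviations were over 0.1 in 0 of 11 comparisons (r from -0.226 to 0.513). The highest was that of replicate 2 for cone against rod on day 12. This rule cannot tell whether libraries of the same number shared a batch. Using RLE size factors moved the median of all genes by at most 0.0361 on the log2 scale. Depth limits the members near the floor, where 1 to 3 counts in a library separate them from 0.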
